A study of Saccharomyces cerevisiae with 9 samples.

Results

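The 9 genes described here encode the lysine synthesis pathway of budding yeast: LYS20, LYS21, LYS4, LYS12, LYS2, LYS5, LYS9, LYS1 and LYS14. They were taken by name, with the brightest probe set of each gene, and each had a single probe set on the array, so 9 of the 5449 S. cerevisiae genes measured belong to the group. Fungi make lysine by the aminoadipate pathway. It starts from 2-oxoglutarate and acetyl-CoA, passes through homocitrate and homoisocitrate in steps that resemble the citric acid cycle, and reaches lysine through aminoadipate and saccharopine. Lysine inhibits the enzyme of the first step, the activator Lys14 responds to an intermediate of the pathway, and Gcn4 raises many amino acid synthesis genes when amino acids run short.

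The study compared 6 cultures of BY4742 (wild type, cultures 1 to 6) with 3 cultures of BY4742 that lack LOS1 (los1 deletion, cultures 7 to 9), in a search for factors that may modulate longevity when Los1, a nuclear export receptor for tRNA, is missing. BY4742 is a haploid laboratory strain of mating type alpha that lacks HIS3 function, LEU2, LYS2 and URA3, and the titles of the deletion arrays also name URA3. All cultures were shaken at 225 rpm and 30 °C in rich glucose medium, harvested at an OD600 of 0.5, and the RNA of each was hybridised to an Affymetrix array. Since LYS2 is disrupted in both groups, neither can complete lysine synthesis, and both depend on lysine from the medium. Per the labels, 3 isolates of each strain were used, and the wild-type cultures were duplicates; which cultures share an isolate is not given, so p-values measure the spread between cultures. Values are RMA log2 expression, which ranks arrays for 1 probe set and does not rank genes against each other, and a difference is deletion minus wild type.

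The arrays matched their labels at LOS1 and URA3. LOS1 was at least 84.1-fold lower and URA3 at least 72.8-fold higher in the deletion, while LEU2 was near background in both groups (difference -0.01, limma adjusted p = 0.947) and HIS3, which BY4742 retains in part, rose by 0.69 (limma adjusted p = 3.68e-04). Loss of LOS1 and gain of URA3 coincide in these arrays, so their parts in any difference between the groups cannot be told apart. The 4 markers of alpha cells lay between 11.7 and 13.97 on every array, the 5 of a cells between 5.11 and 7.71, and the 3 of meiosis between 6.12 and 8.77. Of these 12, 0 passed the test, where 2.62% of all genes rose and 2.90% fell. Differences were positive for 5 of 5 a-cell, 1 of 4 alpha-cell and 1 of 3 meiosis markers. STE3 (-0.15) and SPO11 (-0.31) were lower without overlap, as were 402 of all 5449 genes. Every marker value was above background (4.68 to 4.74 per array). Levels of different genes are not ranked against each other, so the markers compare the groups only. Wild-type arrays correlated with each other at 0.994 to 0.998 and with deletion arrays at 0.986 to 0.993. Of 5 array measures, 2 did not overlap between the groups: the 3′ to 5′ log2 signal ratio of the control transcript SPT15 was 1.67 to 1.78 in wild type and 1.57 to 1.65 in the deletion, and the share of genes above background was 98.04% to 98.16% and 97.76% to 98.02% (exact permutation p = 0.0119 each, adjusted p = 0.0298 over the 5 measures). Their part in the differences of the lysine genes was not tested.

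LYS1, the gene of the last enzyme of the pathway, rose in the deletion, and the other 8 genes did not pass the test. LYS1 was 1.33-fold higher. The differences of the other 7 intact genes were small and positive, between 0.04 for LYS4 and 0.19 for LYS20. Of 9 members 1 rose and 0 fell (limma, adjusted p under 0.05), where 2.62% of all genes rose and 2.90% fell. Median centring of the arrays, repeated quantile normalization, array weights and 2 of the 15 pairings of wild-type cultures gave a count of 2, with LYS14 as the gene added.

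**Figure D1:**
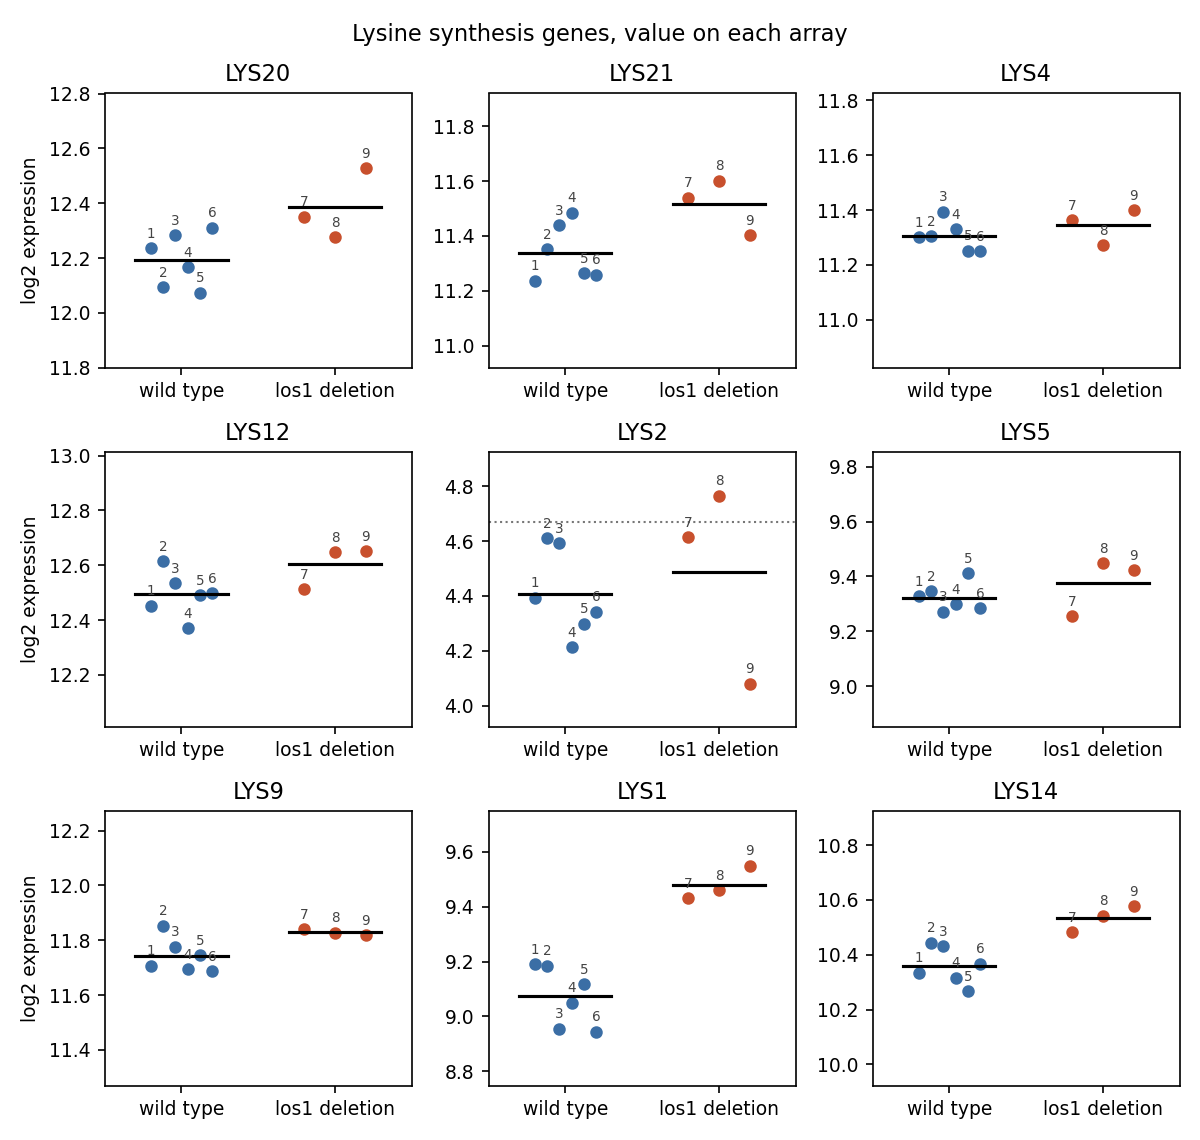
Log2 expression (y axis, a span of 1 in every panel) of the 9 genes in pathway order, with a point for each array labelled by its culture number, wild type in blue (6) and los1 deletion in red (3), and lines at the group means. The dotted line in the LYS2 panel is the background level of 4.67. The deletion points lie above all wild-type points for LYS1 and LYS14 and overlap them for the other 7 genes.

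Homocitrate synthase, which commits 2-oxoglutarate and acetyl-CoA to the pathway, is made as a pair of isozymes encoded by LYS20 and LYS21. LYS20 was lowest at 12.07, had a median of 12.20 and was highest at 12.31 in wild type, and read 12.35, 12.28 and 12.53 in deletion cultures 7, 8 and 9. LYS21 was lowest at 11.24, had a median of 11.31 and was highest at 11.48 in wild type, and read 11.54, 11.60 and 11.40 in the deletion. For each isozyme 2 of the 3 deletion cultures lay above every wild-type culture and the other lay within their range: culture 8 for LYS20 and culture 9 for LYS21. Culture 9 thus held the highest LYS20 value and the lowest LYS21 value of the deletion. The differences were 0.19 ± 0.07 (SE, 6 against 3 cultures) for LYS20 and 0.18 ± 0.07 for LYS21, and neither passed (limma adjusted p = 0.155 and 0.17). Their 95% intervals, 0.03 to 0.35 and 0.02 to 0.33, allowed rises of up to 1.27-fold and 1.25-fold. The difference of LYS20 minus that of LYS21 was 0.01, with SDs of the isozymes' log2 ratio of 0.144 among wild-type and 0.231 among deletion cultures (exact permutation p = 0.893).

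The next steps turn homocitrate into 2-oxoadipate in the mitochondrion. LYS4 encodes homoaconitase, an iron-sulfur enzyme. It was lowest at 11.25, had a median of 11.30 and was highest at 11.39 in wild type, and read 11.36, 11.27 and 11.40 in the deletion. The groups overlapped almost entirely, and the difference of 0.04 ± 0.05 did not pass (limma adjusted p = 0.663, 95% interval -0.06 to 0.14). It was 0.08 without deletion culture 8 and 0.01 without culture 9. LYS12 encodes homoisocitrate dehydrogenase. It was lowest at 12.37, had a median of 12.49 and was highest at 12.61 in wild type, and read 12.51, 12.65 and 12.65 in the deletion. Cultures 8 and 9 lay above every wild-type culture and culture 7 within their range, and the difference of 0.11 ± 0.06 did not pass (limma adjusted p = 0.29, 95% interval -0.02 to 0.24). For these enzymes the upper bounds correspond to 1.10-fold and 1.18-fold.

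LYS2 encodes aminoadipate reductase, whose product, aminoadipate semialdehyde, is the signal that Lys14 responds to, and LYS5 encodes the enzyme that attaches the phosphopantetheine group Lys2 needs. LYS2 was at or near background in both groups: the 6 wild-type values ran from 4.21 to 4.61 with a median of 4.37, all under the background level of their arrays, and the deletion values were 4.61, 4.77 and 4.08. Culture 8 alone lay above its array's background level (4.68 to 4.74 across arrays). The LYS2 difference of 0.08 (limma adjusted p = 0.789) is therefore no measure of a transcript, no fold is given, and its sign turned without culture 8 (-0.06). LYS5 was measured well above background. It was lowest at 9.27, had a median of 9.31 and was highest at 9.41 in wild type, and read 9.26, 9.45 and 9.42 in the deletion. Culture 7 was under every wild-type culture and cultures 8 and 9 above every one, so the deletion cultures spread on both sides of wild type, with a difference of 0.05 ± 0.05 (limma adjusted p = 0.594, 95% interval -0.06 to 0.17). The LYS5 difference was 0.11 without culture 7, 0.02 without culture 8 and 0.03 without culture 9.

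The last steps are made by the saccharopine dehydrogenases. Lys9 joins the semialdehyde with glutamate to form saccharopine, and Lys1 splits saccharopine into lysine and 2-oxoglutarate. LYS9 was lowest at 11.69, had a median of 11.73 and was highest at 11.85 in wild type, and read 11.84, 11.83 and 11.82 in the deletion. The deletion cultures were close together (SD 0.0108) and lay above 5 of the 6 wild-type cultures but under culture 2, and the difference of 0.08 ± 0.05 did not pass (limma adjusted p = 0.308, 95% interval -0.02 to 0.18). LYS1 was lowest at 8.95, had a median of 9.08 and was highest at 9.19 in wild type, and read 9.43, 9.46 and 9.55 in the deletion. Every deletion culture was above every wild-type culture, and the difference was 0.41 ± 0.07 (limma adjusted p = 0.00573, exact permutation p = 0.0119, the smallest that 84 assignments of the arrays can give). That permutation treats duplicate cultures of an isolate as independent. The 95% interval of the LYS1 rise was 1.20-fold to 1.47-fold. LYS1 ranked 85 by p among the 5449 genes, and 62 genes (1.14%) had a larger rise.

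LYS14 encodes the zinc cluster activator of the pathway's genes. It was lowest at 10.27, had a median of 10.35 and was highest at 10.44 in wild type, and read 10.48, 10.54 and 10.58 in the deletion. The groups did not overlap, and the distance between the closest cultures, 2 and 7, was small beside the spread of wild type. The difference of 0.17 ± 0.05 (1.13-fold) did not pass in the fit used throughout (limma adjusted p = 0.0691, 95% interval 0.06 to 0.28, exact permutation p = 0.0119). It passed in 5 of 32 alternative fits, with a lowest adjusted p of 0.0271 and a highest of 0.233, and in 0 of the 9 that left out 1 array.

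**Figure D2:**
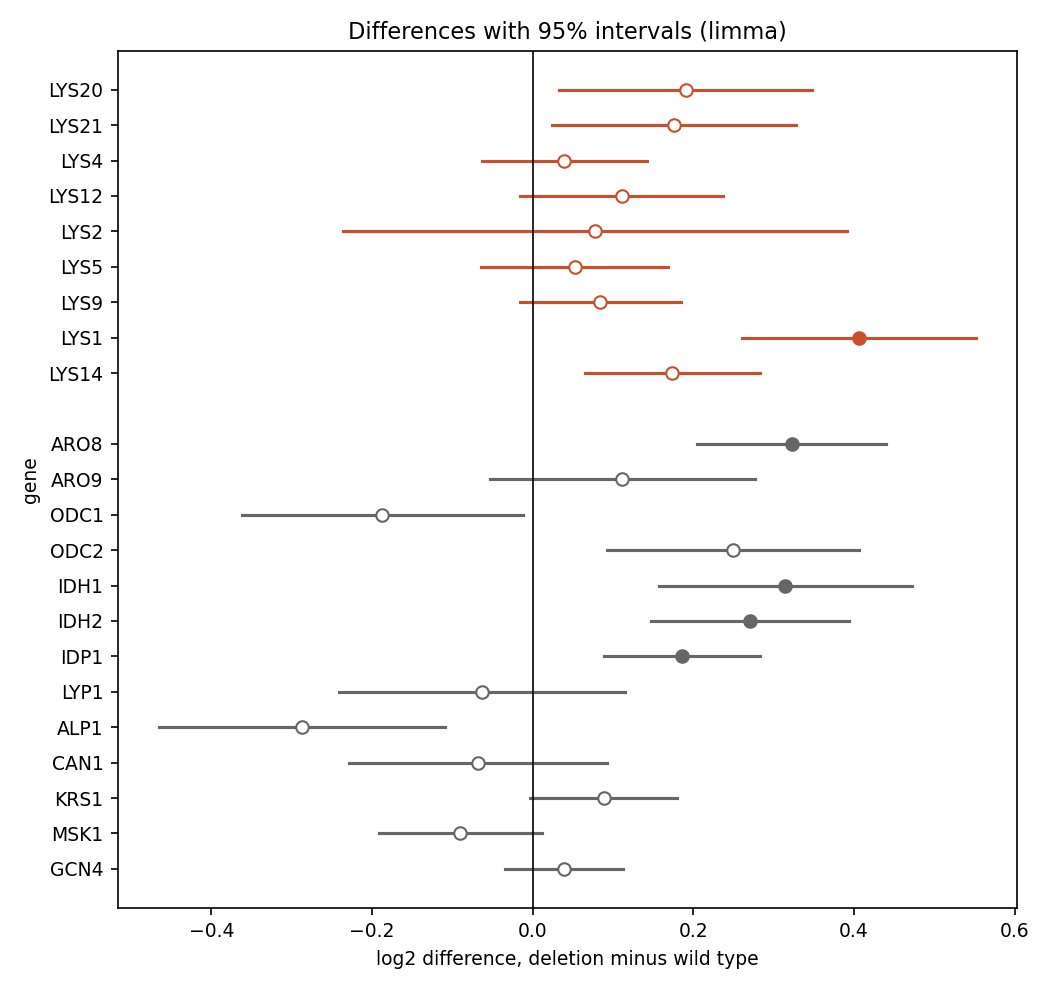
Log2 difference, deletion minus wild type (x axis), with 95% intervals from limma, for the 9 lysine synthesis genes in pathway order (red) and for related enzymes, carriers, permeases, synthetases and GCN4 (grey), with filled points for genes past an adjusted p of 0.05. LYS1 at 0.41 is the filled point among the lysine genes, and ARO8, IDH1, IDH2 and IDP1 are filled among the others.

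All 8 intact members had a positive difference, where 45.3% of all genes did, and their median difference was 0.14 (0.11 with LYS2 included) against -0.01 over all genes. Of the 9 members 4 had an unadjusted limma p under 0.05 with a higher level in the deletion (LYS1, LYS14, LYS20 and LYS21), where 8.85% of all genes did. For 2 of the 9, LYS1 and LYS14, every deletion culture was above every wild-type culture, where 5.19% of all genes showed this. Averaged over the 8 intact members and set against the wild-type mean, deletion cultures 7, 8 and 9 were at 0.117, 0.156 and 0.189, and wild-type cultures ran from -0.0293 (culture 6) to 0.0451 (culture 2). In culture 9 all 8 intact members were above their wild-type mean, and in cultures 7 and 8 this was so for 7 of the 8: LYS5 was under it in culture 7 and LYS4 in culture 8.

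Whether LYS1 rose by more than the other members was compared directly, in a comparison added after the values were seen. For each of the 28 pairs of intact members, the log2 ratio of the pair was computed on every array and set between the groups. In 5 of the 28 pairs the ratio did not overlap between the groups. All 5 were among the 7 that held LYS1: those with LYS4, LYS5, LYS9, LYS12 and LYS14. The excesses of the LYS1 rise ran from 0.23 (over LYS14) to 0.37 (over LYS4). LYS1 was singled out for the largest rise, so positive excesses follow from that choice. The share of such ratios over pairs of all genes was not computed. For LYS1 against LYS9, the neighbouring step, the excess was 0.32 (exact permutation p = 0.0119, adjusted p = 0.111 over the 28 pairs). The lowest adjusted p of the 28 was 0.111, so 0 pairs passed, and with a smallest exact p of 0.0119 fewer than 7 pairs at that value cannot pass. Against LYS20 and LYS21 the excesses were 0.22 and 0.23 with overlap (exact permutation p = 0.131 and 0.119, adjusted p = 0.308 each).

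No pair of members passed a test of correlation within wild type. Over the 6 wild-type cultures, Pearson's r for the 28 pairs ran from -0.84 (LYS5 and LYS20) to 0.847 (LYS9 and LYS12), 16 of the 28 were positive, and the lowest adjusted exact permutation p was 0.466. For LYS9 and LYS12 the exact permutation p of r was 0.0319, Spearman's rho was 0.657 (exact permutation p = 0.175, adjusted p = 0.98), and r was 0.318 without the 2 cultures farthest from the median of LYS9. For LYS5 and LYS20 the exact permutation p was 0.0333, rho was -0.886 (exact permutation p = 0.0333, adjusted p = 0.816), and r was -0.719 without the 2 farthest cultures. The isozyme genes LYS20 and LYS21 had an r of -0.015 (exact permutation p = 0.974, adjusted p = 0.974). Cultures that share an isolate are not fully independent points.

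The genes most like LYS1 over the 9 arrays were sought among 5347 genes above background, by the root mean square difference between gene-centred log2 values. DIC1, the mitochondrial dicarboxylate carrier, was nearest at 0.0586, followed by COS8, of a multigene family, at 0.084 and GAL7, an enzyme of galactose use, at 0.0845. Both groups entered this distance, so it includes the group difference, and genes near LYS1 share its rise by selection. DIC1 rose by 0.45 (limma adjusted p = 0.00134). GAL7 rose by 0.35 (limma adjusted p = 0.0277), a call lost without wild-type culture 4 or without any of the 3 deletion cultures (adjusted p = 0.0516 to 0.128). COS8 had a difference of 0.27 (limma adjusted p = 0.0853) and passed without wild-type culture 5 (adjusted p = 0.0412). The nearest other member was LYS14, at 0.151 and rank 191, and the farthest was LYS4, at 0.201 and rank 1376.

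Of 4 other enzymes and carriers of the pathway, 1 rose and 0 fell, where 2.62% of all genes rose and 2.90% fell. ARO8, an aminotransferase that converts 2-oxoadipate to aminoadipate and also acts on aromatic amino acids, rose. It ran from 12.59 to 12.82 with a median of 12.74 in wild type and read 13.05, 13.03 and 13.07 in the deletion, a difference of 0.32 ± 0.05 (limma adjusted p = 0.0065). All deletion values of ARO8 lay above wild type, as for LYS1. Its paralog ARO9 had a difference of 0.11 (limma adjusted p = 0.414), which was 0.04 without deletion culture 7. The mitochondrial carriers that export 2-oxoadipate had differences of opposite sign: ODC2 was at 0.25, with no overlap between the groups, and ODC1 at -0.19, and neither passed (limma adjusted p = 0.0691 and 0.198). ODC2 passed in 4 of 32 alternative fits, and ODC1 in 0.

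Genes that supply 2-oxoglutarate and acetyl-CoA passed the test at 3 of 12 members, with 3 higher and 0 lower. Over all genes 2.62% rose and 2.90% fell. IDH1 and IDH2, the subunits of the mitochondrial isocitrate dehydrogenase that makes 2-oxoglutarate, rose by 0.31 and 0.27, and IDP1, its NADP-dependent counterpart, rose by 0.19 (limma adjusted p = 0.0314, 0.0217 and 0.0363). IDH2 lay between 12.43 and 12.67 in wild type and read 12.79, 12.75 and 12.82 in the deletion, with no overlap. These calls depended on the arrays. IDH1 lost its call without wild-type culture 1, 2, 4 or 6 or deletion culture 7 or 9 (adjusted p = 0.054 to 0.13), IDH2 without deletion culture 7, 8 or 9 (0.0662 to 0.0993), and IDP1 without wild-type culture 1, 2, 3, 4 or 6 or deletion culture 8 or 9 (0.0504 to 0.157). IDH1 also lost its call over all probe sets (0.0726) and under the pairing 1+4 2+3 5+6 (0.0614), IDP1 over all probe sets (0.126) and under the pairings 1+2 3+4 5+6 and 1+4 2+3 5+6 (0.0524 and 0.057), and IDH2 over all probe sets (0.0616). Without wild-type culture 5 and deletion culture 8 together, IDH2 and IDP1 did not pass (0.0737 and 0.123). IDP2, the cytosolic NADP-dependent isocitrate dehydrogenase, had the difference of largest size in the list, -0.35, and did not pass (limma adjusted p = 0.205). The median of the 12 genes was 0.01.

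Genes that take up, store and use lysine did not pass. Over all genes 2.62% rose and 2.90% fell, so counts of 0 in lists this short are near the share of all genes. Of 10 genes of lysine uptake and vacuolar transport 0 passed in either direction, with a median difference of -0.04. LYP1, the main lysine permease, had a difference of -0.06 (limma adjusted p = 0.692), which was 0.01 without deletion culture 8, and CAN1, a permease of basic amino acids, had -0.07 (limma adjusted p = 0.624), which was -0.04 without wild-type culture 1, -0.0019 without deletion culture 8 and -0.11 without 9. ALP1, a related permease with a low signal, had the smallest p of the list, with -0.29 (limma adjusted p = 0.0656), and passed in 6 of 32 alternative fits: without wild-type culture 3 (adjusted p = 0.0428), with array weights (0.0399) and under 4 of the 15 pairings (0.0365 to 0.048). The lysyl-tRNA synthetase genes, KRS1 of the cytosol and MSK1 of the mitochondrion, had differences of 0.09 and -0.09 (limma adjusted p = 0.244 and 0.287). Of 4 genes of glutamate and glutamine synthesis 0 passed, and GLN1, glutamine synthetase, had the smallest p with 0.13 (limma adjusted p = 0.224; 0.07 without deletion culture 7).

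Among 8 regulators of amino acid, nitrogen and retrograde signalling, 0 passed, where 2.62% of all genes rose and 2.90% fell. A count of 0 in 8 is near that share. Their median difference was 0.02. The smallest p of these belonged to RTG2, a retrograde regulator, with -0.08 (limma adjusted p = 0.39; -0.06 without wild-type culture 2). GCN4 had a difference of 0.04 (limma adjusted p = 0.525). Every deletion culture was above every wild-type culture for GCN4, as for 5.19% of all genes. It lay between 13.64 and 13.66 in wild type and read 13.68, 13.69 and 13.70 in the deletion (exact permutation p = 0.0119). These are values of GCN4 mRNA, and the Gcn4 protein was not measured. Of 18 genes beside the members on the chromosomes, 15 were measured and 1 passed, where 2.62% of all genes rose and 2.90% fell. The 1 gene was MRH1, next to LYS14. MRH1 fell by 0.16 (limma adjusted p = 0.0314), opposite in sign to LYS14. MRH1, DIC1, COS8, GAL7, IDP2, ODC1, ODC2, ARO9, LYP1, CAN1, MSK1 and GCN4 were named after their values were seen or by their likeness to LYS1. The MRH1 call was lost without wild-type culture 1, 4 or 6 or deletion culture 7, 8 or 9 (adjusted p = 0.0568 to 0.116).

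**Figure D3:**
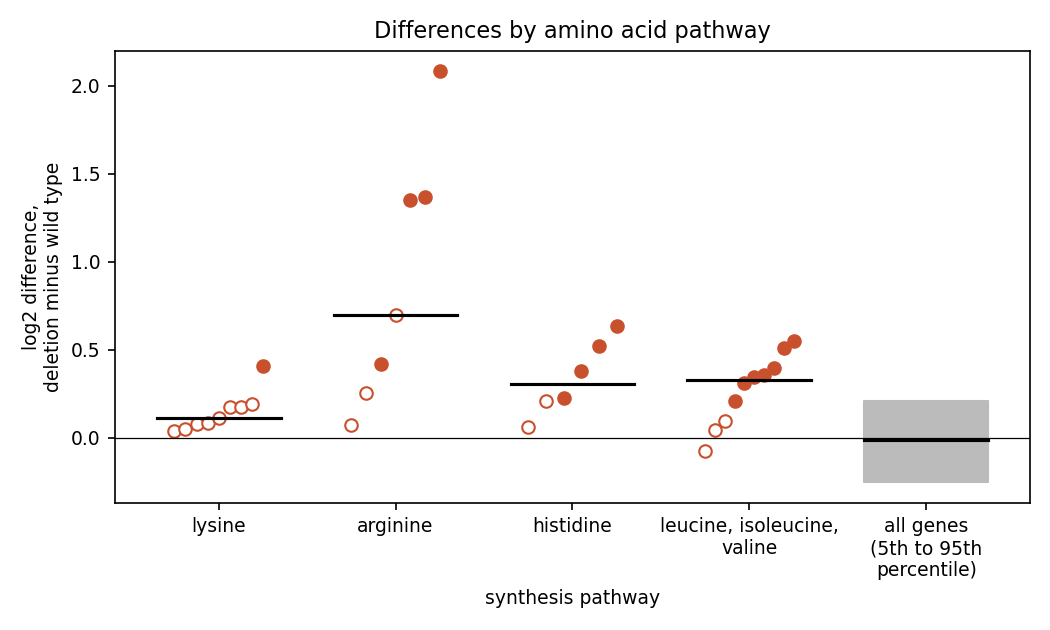
Log2 difference, deletion minus wild type (y axis), of the listed genes of 4 amino acid synthesis pathways, without the engineered HIS3 and LEU2 (points, filled where the adjusted p is under 0.05), with a line at each median. The grey block spans the 5th to 95th percentile of all genes, -0.253 to 0.209, around a median of -0.01. The lysine median is 0.11 with the disrupted LYS2 counted and 0.14 without it, and the medians of the other 3 pathways are 0.30 to 0.70.

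The lysine genes were set beside 3 other amino acid pathways on the same arrays, from which the engineered HIS3 (0.69) and LEU2 (-0.01) were left out, while the disrupted LYS2 was counted with the lysine genes. The 3 pathways were chosen with earlier results of these data known. Other amino acid pathways were not compared, so the place of lysine synthesis among them is not given. In arginine synthesis 4 of 7 measured genes rose, with a median difference of 0.70 and a highest of 2.08. In histidine synthesis 4 of 6 rose, with a median of 0.30 and a highest of 0.63, and in leucine, isoleucine and valine synthesis 7 of 10 rose, with a median of 0.33 and a highest of 0.55. In lysine synthesis 1 of 9 rose, with a median of 0.11 and a highest of 0.41. Without LYS2, as HIS3 and LEU2 were left out, it was 1 of 8 with a median of 0.14. In all 4 pathways 0 genes fell. Over all genes 2.62% rose and 2.90% fell. The differences between the pathways were not tested.

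Leaving out each array in turn kept LYS1 past the threshold in 9 of 9 fits. Its difference ran from 0.37 without deletion culture 9 to 0.43 without deletion culture 7, with adjusted p from 0.0059 to 0.0382. It also passed under each of the 15 pairings of wild-type cultures as blocks. LYS20 and LYS21 passed in 0 of 32 alternative fits, and among the fits without 1 array their differences moved most without deletion culture 9, where LYS20 was at 0.12 and LYS21 at 0.23.

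**Figure D4:**
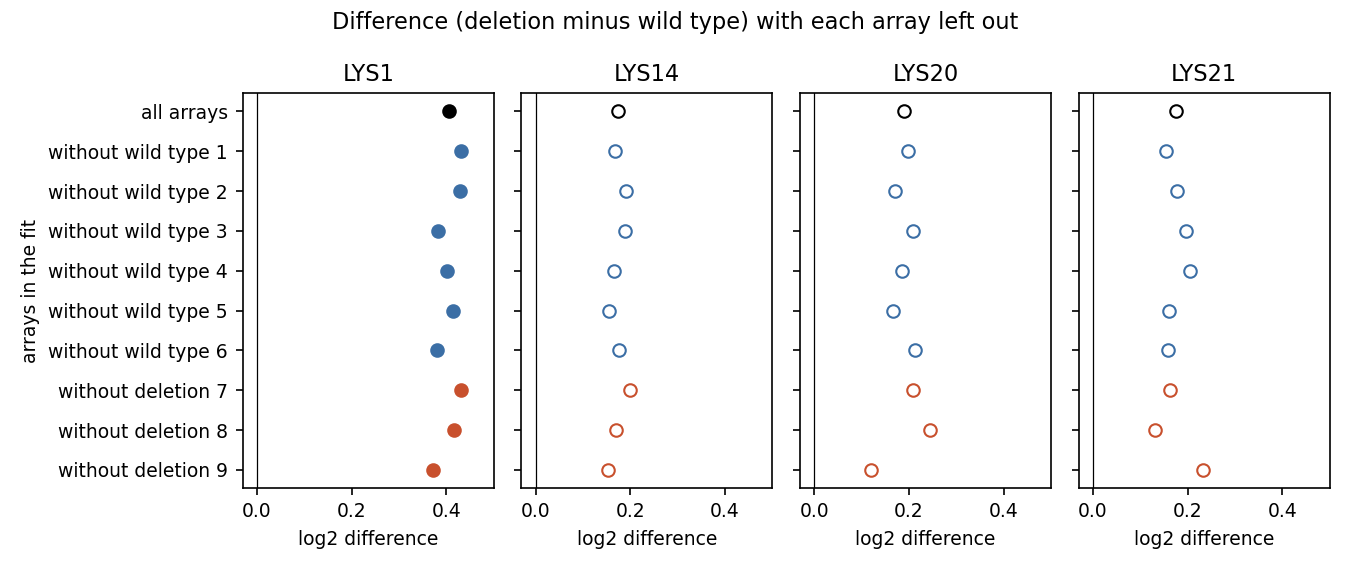
Log2 difference, deletion minus wild type (x axis), of LYS1, LYS14, LYS20 and LYS21 with all arrays (black) and without each wild-type (blue) or deletion (red) array in turn, filled where the limma adjusted p is under 0.05. LYS1 is filled in every fit, between 0.37 and 0.43, LYS14 is unfilled between 0.15 and 0.20, and LYS20 and LYS21 shift in opposite directions when culture 9 is left out.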

How the data were processed

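Per the submitters' processing notes, the authors deposited log2 values per probe set that RMA (version not stated) computed from the 9 arrays. RMA quantile normalizes the arrays, so a difference is relative to the other transcripts, and it compresses dim values. Of 10928 probe sets, 5498 matched S. cerevisiae assembly R64 by gene identifier; the brightest per gene was kept (5449 genes). The 95th percentile of 1746 S. pombe probe sets was the background, 4.67 for array means and 4.68 to 4.74 per array. Groups came from the titles and descriptions. Differences were tested with limma 3.58.1 in R 4.3.3 over the 5449 genes (lmFit, eBayes, 2-sided, Benjamini-Hochberg, threshold 0.05), after the script was tested on simulated data. Exact permutation tests were 2-sided over 84 assignments. They treat all 9 cultures as independent, although wild-type cultures were duplicates of isolates, so their p-values do not measure the spread between isolates. The number of arrays limits the precision. Members and gene lists were chosen with earlier results of these data known. Beside the 9 members, each list's genes with the smallest p (up to 3 past the threshold, otherwise 1) were to be named. Alternatives covered scaling, filters, probe sets, the variance model, pairings, left-out arrays and an adjusted p of 0.01. A fit without wild-type culture 5 and deletion culture 8 was added after the data were seen.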

Additional observations from a re-analysis of the deposited data

How the results depend on the processing

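LYS1 and ARO8 passed in 32 of 32 alternative fits, with LYS1 differences between 0.37 and 0.43. The number of members past the threshold was 1, and 2 under median centring, repeated quantile normalization, array weights and the pairings 1+2 3+5 4+6 and 1+6 2+4 3+5; it was 1 in each fit without 1 array. The number of genes past the threshold, 301, was 169 over all probe sets, 498 with array weights, 468 under the pairing 1+2 3+5 4+6, 196 under the pairing 1+4 2+3 5+6, 110 at an adjusted p of 0.01 and 152 without wild-type culture 5 and deletion culture 8. Without 1 array it ran from 126 (deletion culture 8) to 478 (wild-type culture 5), and was 183 without wild-type culture 4 and 170 and 148 without deletion cultures 7 and 9. Differences near 0 changed sign: LYS2 was at -0.00386 with array weights and -0.0837 without wild-type culture 5 and deletion culture 8, and ran from -0.0617 (without deletion culture 8) to 0.281 (without 9) with 1 array left out. LYP1 was at 0.00145 without wild-type culture 5 and deletion culture 8, and ran from -0.128 (without deletion culture 7) to 0.00928 (without 8). LEU2 was at 0.0057 under median centring and 0.0922 after repeated quantile normalization, and ran from -0.0903 (without deletion culture 8) to 0.0366 (without 7). The causes were not tested. Over all alternatives adjusted p ranged from 0.00211 to 0.0382 for LYS1, 0.00508 to 0.0993 for IDH2, 0.0096 to 0.13 for IDH1 and 0.00797 to 0.157 for IDP1. No paired analysis was possible because the groups share no replicate numbers. Dim signal limits LYS2, and 3 deletion arrays limit every difference.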
